A study of Mus musculus with 9 samples.

Results

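A set of 9 noncoding RNA genes was described across 9 mouse livers: both listed genes for 7SL RNA (Rn7s1 and Rn7s2), 7SK RNA (Rn7sk), the RNA components of RNase MRP (Rmrp) and RNase P (Rpph1), the small and large mitochondrial ribosomal RNAs (mt-Rnr1 and mt-Rnr2), and the long nuclear RNAs Malat1 and Neat1. They were matched by symbol in a table of 51912 genes, and all 9 were found. The members were selected on their measured TPM in these livers, so their abundance is given as a description and was not tested. In all, 5 mice received an antisense oligonucleotide (ASO) against apoC-III and 4 received a control ASO, each at 50 mg/kg per week for 8 weeks by intraperitoneal injection. All 9 animals, controls included, had the genotype Apoe-/-Ndst1 f/f Alb-Cre+ and a C57Bl/6 background. They lacked apolipoprotein E in the whole body and carried a Cre recombinase under the albumin promoter, which removes the heparan sulfate enzyme Ndst1 in hepatocytes. Livers were taken after fasting, and whole liver RNA was depleted of ribosomal RNA and sequenced. Age and sex are not given in the labels used here.

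The unit throughout is TPM, a length-corrected transcript abundance scaled to a total of 1000000 in every liver, so a large rise of one RNA lowers the values of all others. The table keeps no read depth, and no counting error can be attached to a value. The labels do not tie the samples to separate cages or days, so exact permutation p-values rest on the spread between these livers alone. The fitted p-values (limma) of the groups as deposited rest on the spread of genes of like level instead. Apoc3, the target of the ASO, was at 14.0 to 32.2 TPM in the 5 apoC-III ASO livers and at 41.4 to 271 TPM in the 4 control ASO livers, without overlap (exact permutation test, p = 0.0159, which is the smallest value that 5 against 4 livers allow in a two-sided test). All 8 hepatocyte markers (Alb, Apoa1, Apoa2, Apob, Ttr, Fgb, Serpina1a and Cps1) were above a mean of 1 TPM. Control ASO replicate 4 stood apart, with a summed hepatocyte marker level of 452 TPM against 1239 to 4561 TPM in the apoC-III ASO livers, and values without it are given where it moves a member.

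7SL RNA is the scaffold of the signal recognition particle, which brings ribosomes making secreted proteins to the endoplasmic reticulum, a heavy task in liver. 7SK RNA holds the elongation factor P-TEFb in an inactive particle in the nucleus. RNase P trims the 5′ ends of transfer RNA precursors, and RNase MRP is a related enzyme that cuts ribosomal RNA precursors. These 4 kinds of RNA are made by RNA polymerase III. The mitochondrial rRNAs are transcribed from the heavy strand of mitochondrial DNA. Malat1 sits in nuclear speckles and Neat1 builds paraspeckles, both RNA polymerase II products of neighbouring genes.

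Sequence decides how far the small RNAs can be told from their copies, so the limit is given first, with the stretches that separate 7SK from its most abundant listed copy (GENCODE M21, GRCm38). Rn7s1 (chr12:69159295-69159594, plus strand) and Rn7s2 (chr12:69361182-69361481, minus strand) are annotated as misc_RNA genes of 300 bases, and 0 bases differ between them. Their TPM values were equal in every liver, so from here on Rn7s1 stands for both and 7SL for their sum. The stretches of Rn7sk (chr9:78175303-78175633, minus strand) and of Gm24447 (chr15:93234363-93234700, plus strand) both start at base 182, and capitals mark the bases after the first 241, from which point they part.
Rn7sk: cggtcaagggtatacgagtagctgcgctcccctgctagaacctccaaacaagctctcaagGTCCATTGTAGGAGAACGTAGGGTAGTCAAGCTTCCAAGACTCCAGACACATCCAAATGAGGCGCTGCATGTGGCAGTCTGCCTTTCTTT
Gm24447: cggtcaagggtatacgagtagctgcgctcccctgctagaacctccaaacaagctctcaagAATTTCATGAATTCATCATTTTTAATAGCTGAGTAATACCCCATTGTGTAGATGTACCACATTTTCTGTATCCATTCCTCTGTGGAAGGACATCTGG
Gm24447 is an annotated misc_RNA gene whose first 241 bases are identical to 7SK, leaving 90 bases of Rn7sk and 97 of Gm24447 to separate the genes. In all, 12 of the 133 listed genes with at least 100 bases aligned to 7SK were at least 90% identical to it over the aligned bases, and 9 of these were above 0 in at least 1 liver.

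The positions and overlaps of the other members follow. Rmrp (chr4:43492788-43493058, minus strand, ribozyme, 271 bases) has 124 bases antisense to a transcript of Ccdc107, which was at 2.12 TPM on average. The annotation also holds a lincRNA gene named Rmrp, identical over all 271 bases in the same direction, which is not among the genes listed. Rpph1 (chr14:50807449-50807767, minus strand, ribozyme, 319 bases) shares 233 bases, in the same direction, with a transcript of Ccnb1ip1, which was listed at 0 in every liver. The mitochondrial genes mt-Rnr1 (chrM:70-1024) and mt-Rnr2 (chrM:1094-2675) lie 69 bases apart on the plus strand. No annotated transcript outside mt-Rnr1 matched it over 100 bases, and 2 matched mt-Rnr2. Malat1 (chr19:5795690-5802672) and Neat1 (chr19:5824708-5845478) are lincRNA genes on the minus strand 22035 bases apart, each with 4 transcripts in this annotation. Which transcripts the deposited values cover is not given in the labels used here. The 5 short polymerase III members had GC contents of 58.0% to 67.1%, while the mitochondrial rRNAs were at 35.4% and 35.8%.

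The 9 members together held 88.5% to 95.2% of the summed TPM of a liver. The nuclear protein-coding genes, 21857 of those listed, held only 1.94% to 8.64%. In the apoC-III ASO livers, replicates 1 to 5, the protein-coding share was 5.31%, 4.597%, 3.98%, 5.11% and 3.04%, and in the control ASO livers, replicates 1 to 4, it was 8.64%, 5.42%, 5.64% and 1.94%. The highest and the lowest share were both control ASO livers.

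**Figure D1:**
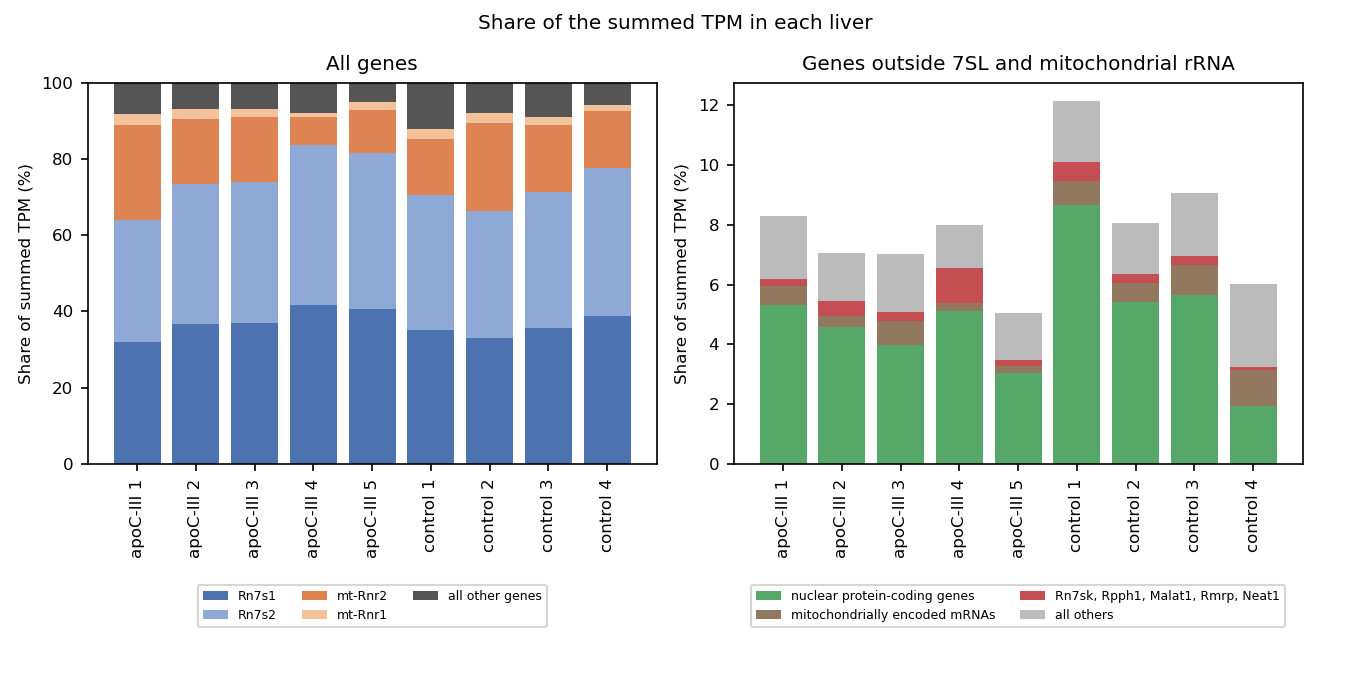
Share of the summed TPM (%, vertical axis) in each of the 9 livers (horizontal axis). Left, both 7SL genes and both mitochondrial rRNAs filled 87.9% to 94.9% of every bar; right, the remaining genes on an enlarged axis, where nuclear protein-coding genes ranged from 1.94% to 8.64%.

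7SL alone made up most of the summed TPM in every liver. Its 2 genes summed to 64.0%, 73.3%, 74.0%, 83.6% and 81.5% of the TPM in apoC-III ASO replicates 1 to 5, and to 70.5%, 66.3%, 71.3% and 77.6% in control ASO replicates 1 to 4. The groups overlapped, since the lowest and the highest share both came from apoC-III ASO livers. TPM divides by transcript length (300 bases for Rn7s1, 1582 for mt-Rnr2), so a share of TPM is not a share of reads. Per gene, Rn7s1 averaged 376511 ± 38774 TPM (SD, n = 5) under apoC-III ASO and 357162 ± 23228 TPM (SD, n = 4) under control ASO. Its spread over livers on the log2 scale was 0.13, beside a median of 0.58 over the 4936 genes with a mean of at least 1 TPM. RNAs that nearly fill a fixed total have little room to vary on this scale, and relative to other genes the range of Rn7s1 was wider, from 1.31-fold in TPM to 4.90-fold per protein-coding TPM and 9.19-fold when each liver was scaled by its median gene ratio. A further 7SL copy, Gm24105, which is 91.7% identical, was at 256 TPM on average.

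mt-Rnr2, the RNA of the large mitochondrial ribosomal subunit, took the next largest share. Its values were 249492, 170763, 168881, 72763 and 112870 TPM in the apoC-III ASO livers, and 147722, 230193, 176482 and 149197 TPM in the control ASO livers. The control values lay inside the range of the apoC-III ASO values. mt-Rnr1, from the small subunit, was at 27449, 25254, 20657, 11576 and 21189 TPM under apoC-III ASO and at 25658, 26130, 19842 and 15030 TPM under control ASO. Both were lowest in apoC-III ASO replicate 4, the liver in which 7SL was highest. mt-Rnr2 exceeded mt-Rnr1 by 5.33 to 9.93 times, with a median of 8.18. The RNA was depleted of ribosomal RNA before sequencing, and the part of that step in these levels was not tested. Over the 9 livers, log2 TPM of Rn7s1 ran against that of mt-Rnr2 (r = -0.92) and mt-Rnr1 (r = -0.79), shares of 1 fixed total. Per protein-coding TPM, which share a denominator, the same pairs had the opposite sign (r = 0.58 and r = 0.67). The mitochondrial rRNAs ran together on both scales (r = 0.79 and r = 0.91), and none of these coefficients was tested.

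Rn7sk varied most among the small RNAs. It was at 1201, 3837, 1566, 9052 and 1024 TPM in the apoC-III ASO livers and at 4020, 1214, 1501 and 462 TPM in the control ASO livers, a 19.6-fold range. The 3 high livers were apoC-III ASO replicates 2 and 4 and control ASO replicate 1. Gm24447, the copy with the same first 241 bases, was listed at 0 in exactly these 3 livers, and at 1180 to 2621 TPM in the other 6. Read as 1 quantity, Rn7sk and Gm24447 summed to 3822, 3837, 2746, 9052 and 2501 TPM under apoC-III ASO and to 4020, 2924, 3378 and 2124 TPM under control ASO. The range then shrank to 4.26-fold, and only apoC-III ASO replicate 4 stood well above the other livers. What divides the signal between Rn7sk and Gm24447 was not tested.

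**Figure D2:**
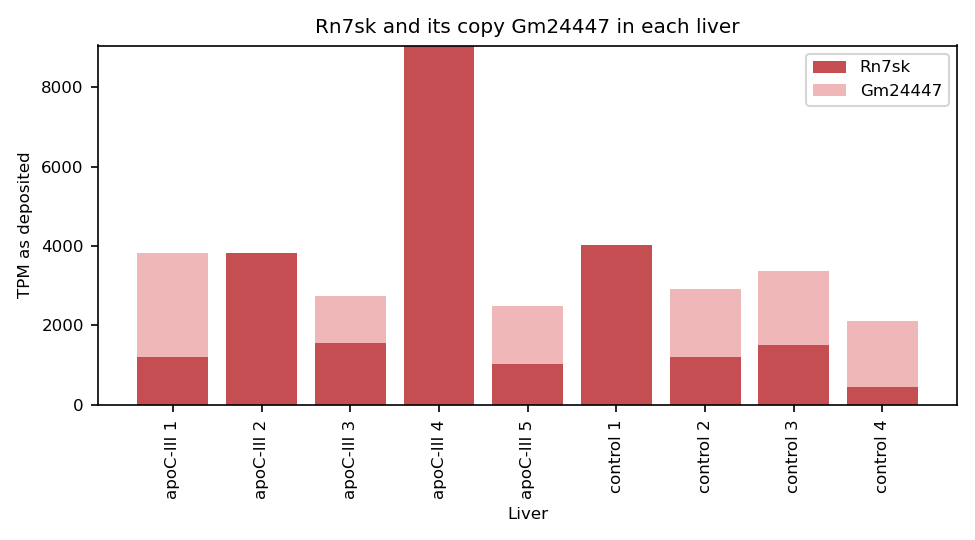
Stacked TPM (vertical axis) of Rn7sk and of Gm24447 in each liver (horizontal axis). Gm24447 is listed at 0 in apoC-III ASO replicates 2 and 4 and control ASO replicate 1, where Rn7sk reaches 3837, 9052 and 4020 TPM, and 8 of 9 stacked bars end between 2124 and 4020 TPM.

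The catalytic RNAs were far apart in level. Rpph1 was at 722, 963, 1044, 2392 and 960 TPM under apoC-III ASO and at 1172, 1235, 1139 and 495 TPM under control ASO. Rmrp was at 64.3, 39.7, 49.9, 96.2 and 47.1 TPM under apoC-III ASO and at 72.02, 36.6, 32.1 and 69.5 TPM under control ASO. Rpph1 thus exceeded Rmrp by 7.12 to 35.5 times. Both peaked in apoC-III ASO replicate 4, the liver that also had the highest Rn7sk and 7SL. The sum of the erythroid markers was highest in this liver too, at 49.1 TPM. The beta-globin gene Hbb-bs was at 30.6 TPM there, against 0.878 to 14.3 TPM in the other livers. Alas2 and Hba-a2, also among these markers, peaked elsewhere, in control ASO replicates 1 and 4 respectively. The part of these markers in the levels of the RNAs was not tested. In control ASO replicate 4 the catalytic RNAs parted: Rpph1 was at its lowest there and Rmrp was the third highest of the 9.

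Malat1 and Neat1, the long nuclear RNAs, were at lower levels than Rpph1 in every liver. Malat1 was at 186, 266, 133, 116 and 65.1 TPM in the apoC-III ASO livers and at 837, 535, 440 and 71.2 TPM in the control ASO livers. The first 3 control livers were above every apoC-III ASO liver, and control ASO replicate 4 was below 4 of the 5. Neat1 was at 27.0, 48.4, 18.9, 40.0 and 8.73 TPM under apoC-III ASO and at 45.0, 22.7, 13.7 and 5.29 TPM under control ASO. Its groups overlapped over most of their range.

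The order of the mean levels was Rn7s1, mt-Rnr2, mt-Rnr1, Rn7sk, Rpph1, Malat1, Rmrp and Neat1. Each gene exceeded the next in all 9 livers, except that Rn7sk exceeded Rpph1 in 7 of 9 and Rmrp exceeded Neat1 in 8 of 9. Malat1 came within 1.03 times of Rmrp in the closest liver. By mean TPM, 224 genes were at least as abundant as Neat1, the lowest member, and 215 of them were not members. The highest of those were Mup14 (6884 TPM on average), Gm29216 (3220 TPM), Mup9 (2667 TPM), AA474408 (2660 TPM) and Mup7 (2195 TPM). The Mup genes encode major urinary proteins, carrier proteins that mouse liver secretes.

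**Figure D3:**
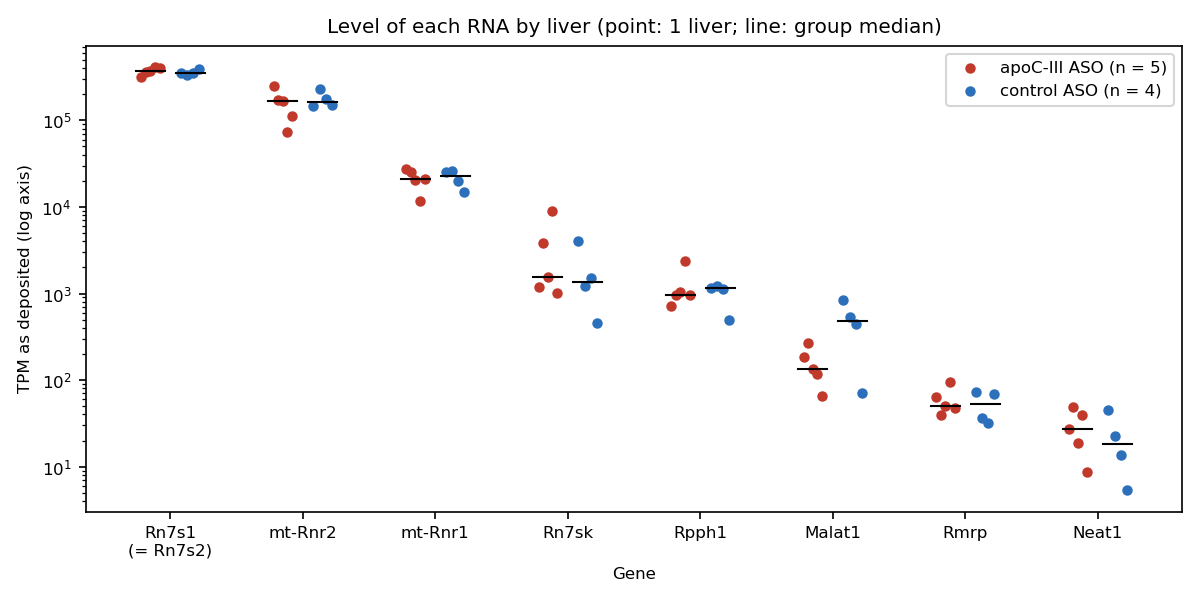
TPM of the 8 distinct RNAs (log axis) with 1 point per liver, apoC-III ASO (n = 5) beside control ASO (n = 4), and a line at each group median. Levels fall from 367912 TPM on average for Rn7s1 to 25.5 TPM for Neat1, and the groups overlap for all 8 RNAs.

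Whether the ASO moved these RNAs was tested with limma on log2(TPM + 1) over all 4936 genes, and a gene was called with an adjusted p (Benjamini-Hochberg) below 0.05 and a change of more than 1.5-fold. This called 11 genes (0.223% of those tested), and 0 of the 8 distinct members, each at an adjusted p of 0.9997 in limma. No member separated the groups without overlap either, which 0.223% of all genes did and 0.0405% did with lower values under apoC-III ASO. At an unadjusted p under 0.05, which 2.01% of all genes reached, 1 member remained, mt-Rnr2, with a log2 difference of -0.28 ± 0.11 (SE). That SE came from the spread shared by genes of like level, at which mt-Rnr2 was given an SD of 0.17 in place of the 0.55 seen between its own livers, and an exact permutation test of mt-Rnr2 alone gave p = 0.524. Its value turned on single livers: without apoC-III ASO replicate 1 it was -0.48 (limma, adjusted p = 0.0211, a change below 1.5-fold), and without apoC-III ASO replicate 4 it was -0.035 (adjusted p = 1). The log2 differences of the polymerase III members were 0.07 ± 0.08 for Rn7s1, 0.77 ± 0.49 for Rn7sk, 0.22 ± 0.55 for Rpph1 and 0.19 ± 0.73 for Rmrp (SE), with apoC-III ASO higher. Rn7sk was at 0.25 without control ASO replicate 4 and at 1.29 without control ASO replicate 1. With Gm24447 added to Rn7sk, its difference was 0.37 ± 0.40. The 95% intervals, which rest on the fitted SD, still allowed sizeable shifts. For Rn7sk the interval ran from -0.18 to 1.73, with a fitted SD of 0.73 in place of its own 1.30. In the fit without a filter it ran from -0.99 to 2.54. For Rmrp it ran from -1.23 to 1.62, with a fitted SD of 1.08 that is wider than its own 0.54. For Rn7s1 it ran only from -0.09 to 0.23. The median over all tested genes was 0.11.

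Malat1 showed the largest difference of the members, and its size against the error depended on the scale. As deposited, its log2 difference was -1.32 ± 0.70 (SE; limma, adjusted p = 0.9997; exact permutation p = 0.127). With 1 liver left out it ran from -2.07 without control ASO replicate 4 (limma, unadjusted p = 0.00056, adjusted p = 0.218) to -0.89 without control ASO replicate 1 (adjusted p = 0.931). Median-of-ratios scaling divides each liver by its typical gene ratio to the average liver, and the factors ran from 0.213 in control ASO replicate 4 to 1.78 in control ASO replicate 1. On that scale Malat1 was at 119, 181, 130, 102 and 104 scaled TPM in the apoC-III ASO livers and at 470, 393, 381 and 334 in the control ASO livers. The groups no longer overlapped, and the log2 difference was -1.65 ± 0.29 (SE; limma, unadjusted p = 0.00016, adjusted p = 0.161; exact permutation p = 0.0159). Of all genes tested on that scale, 2.21% separated without overlap and 1.18% did so with lower values under apoC-III ASO, 5.57% had an unadjusted p under 0.05 (2.9% lower), and 0.0405% were called. Malat1 did not pass the adjusted threshold in any of the 22 alternatives run, where its adjusted p ranged from 0.0812 to 1, and it was lower under apoC-III ASO in each.

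Per 1000 TPM of nuclear protein-coding genes, Malat1 was at 3.51, 5.78, 3.35, 2.27 and 2.14 in the apoC-III ASO livers and at 9.69, 9.87, 7.80 and 3.67 in the control ASO livers (log2 difference on the limma scale -1.17 ± 0.41, unadjusted p = 0.0144, adjusted p = 0.416; exact permutation p = 0.0317). Control ASO replicate 4 fell within the apoC-III ASO range here. On this scale 0.081% of all genes were called, 11.8% had an unadjusted p under 0.05 (0.405% lower), and 4.38% separated without overlap (0.122% lower). With median-of-ratios scaling and without that liver, the difference was -1.72 ± 0.28 (limma, adjusted p = 0.109). With protein-coding scaling and without it, Malat1 was at -1.50 (unadjusted p = 0.0016, adjusted p = 0.425), Rmrp at 0.91 (unadjusted p = 0.011, adjusted p = 0.674) and Rn7s1 at 0.68 (unadjusted p = 0.041, adjusted p = 0.711) in limma, beside a median of 0.14 over all genes.

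Neat1, which lies next to Malat1 on chromosome 19, had a log2 difference of 0.52 ± 0.68 in the deposited values and of 0.22 ± 0.34 on the median-of-ratios scale (SE; limma, adjusted p of 0.9997 and 0.958), with apoC-III ASO higher. The deposited values gave 0.019 ± 0.53 without control ASO replicate 4 and 0.98 ± 0.72 without control ASO replicate 1. A ratio of 2 genes within a liver is free of the scale, so it bears on the pair directly. The ratio of Malat1 to Neat1 was 6.90, 5.49, 7.06, 2.91 and 7.45 in the apoC-III ASO livers and 18.6, 23.5, 32.0 and 13.5 in the control ASO livers. Every control liver was above every apoC-III ASO liver, control ASO replicate 4 included (log2 difference -1.88; exact permutation p = 0.0159, the smallest possible). This was 1 of 6 ratios computed and was singled out after its values were seen. For comparison, the ratio of Malat1 to each other tested gene was lower without overlap for 16.3% of the 4935 genes, while the same share was 0% to 0.284% for the other 7 distinct members. This share was computed for the members only, so how common a value like that of Malat1 is among all genes is not known. Which transcripts of Malat1 or Neat1 carried the signal cannot be told from values per gene.

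**Figure D4:**
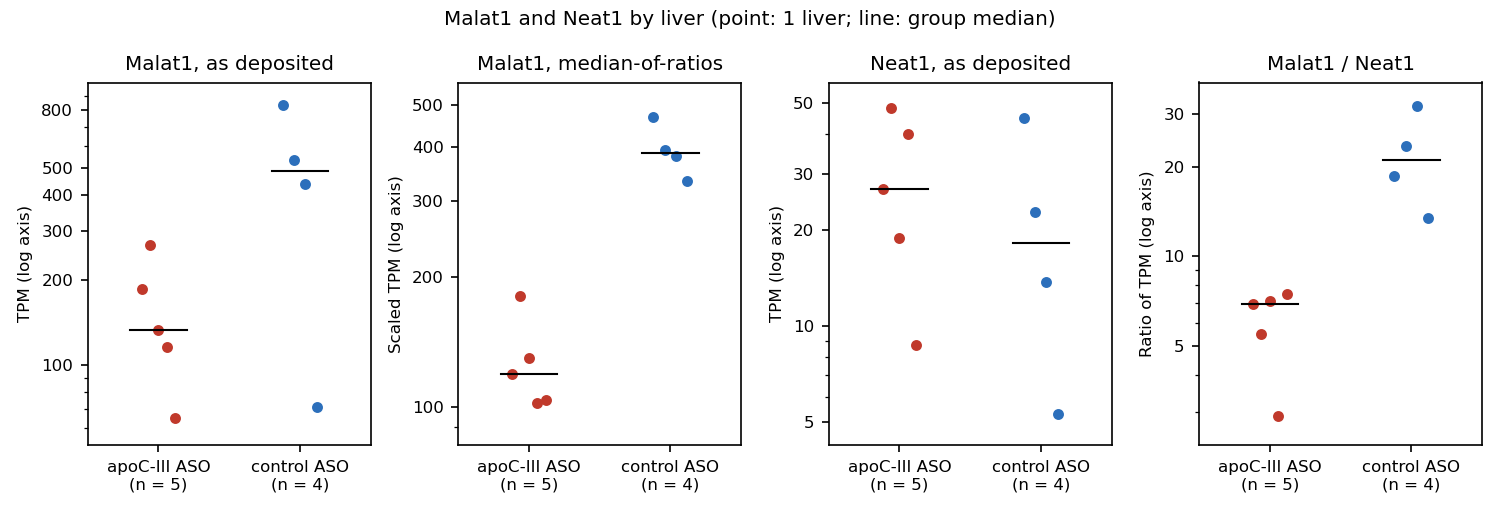
Malat1 as deposited, Malat1 after median-of-ratios scaling, Neat1 as deposited, and the ratio of Malat1 to Neat1 (vertical axes, all log), with 1 point per liver and a line at each group median. The ratio lies between 2.91 and 7.45 in the 5 apoC-III ASO livers and between 13.5 and 32.0 in the 4 control ASO livers.

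The other 5 ratios overlapped between the groups. The nearest to separation was that of the mitochondrial rRNAs to the 13 mitochondrially encoded mRNAs, at 43.1, 56.5, 23.5, 29.5 and 54.5 in the apoC-III ASO livers and at 21.02, 41.0, 19.5 and 13.9 in the control ASO livers (log2 difference 0.83; exact permutation p = 0.0794). The mRNAs summed to medians of 3468 and 9153 TPM in the apoC-III ASO and control ASO livers, and the summed rRNAs had medians of 189538 and 184852 TPM. The part of the ribosomal depletion in this ratio was not tested.

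How the members moved with the nuclear protein-coding share was measured in 2 ways. First, the share of each member was correlated with the protein-coding share over the 9 livers, with exact permutation p-values, 8 relations in all. Malat1 rose with it (Pearson r = 0.87, p = 0.00116; Spearman rho = 0.88, p = 0.00308). These correlations were not computed for all genes, and a rise with this share was common. In the slope fit below it passed for 89% of all genes and for 58.9% of those not nuclear protein-coding. Without the 2 livers farthest from the median share, control ASO replicates 1 and 4, Malat1 gave r = 0.69 (exact p = 0.0357, n = 7). Centred within each group, Malat1 gave r = 0.94 (exact p = 0.0333) and rho = 0.62 (exact p = 0.122). Neat1 gave r = 0.66 (exact p = 0.0492) and rho = 0.50 (exact p = 0.178). Without the same 2 livers it fell to r = 0.30 (exact p = 0.533), so the Neat1 relation rested on them. Centred within groups, Neat1 gave r = 0.78 (exact p = 0.0153).

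Over all 9 livers the other members did not reach a p under 0.05. The Pearson r was 0.36 for Rn7sk (exact p = 0.314), 0.33 for Rpph1 (exact p = 0.287), 0.10 for Rmrp (exact p = 0.767), 0.45 for mt-Rnr1 (exact p = 0.209), 0.16 for mt-Rnr2 (exact p = 0.687) and -0.47 for Rn7s1 (exact p = 0.198). Spearman's rho for the same members was 0.48, 0.62, -0.13, 0.42, 0.33 and -0.67 (exact p of 0.194, 0.0857, 0.744, 0.27, 0.385 and 0.0589). Within groups the r values were 0.48, 0.42, 0.16, 0.46, 0.11 and -0.42 (exact p of 0.0375, 0.195, 0.74, 0.217, 0.756 and 0.177), and Rn7sk also passed on log2 shares (r = 0.64, exact p = 0.0497). Shares of a fixed total are tied to each other, so the coefficient of Rn7s1, the largest share, is not free of the arithmetic. These p-values are not adjusted over the 8 relations.

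**Figure D5:**
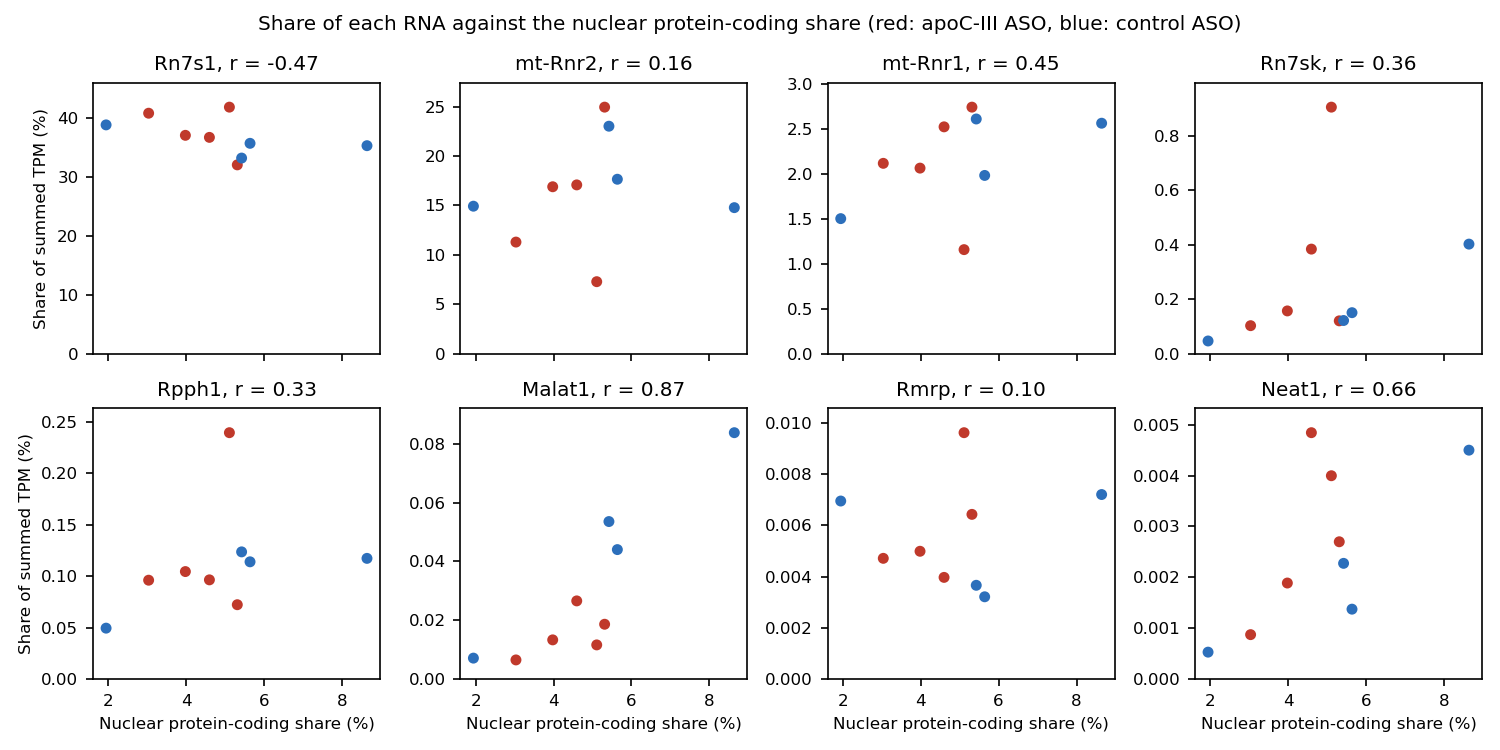
Share of the summed TPM of each of the 8 distinct RNAs (%, vertical axes) against the share of nuclear protein-coding genes (%, horizontal axes), with 1 point per liver, apoC-III ASO in red and control ASO in blue. Malat1 climbs with the protein-coding share (r = 0.87), whereas Rn7s1 does not (r = -0.47). Positive slopes on this share passed for 89% of all genes tested.

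Second, a slope on the log2 protein-coding share was fitted for all 4936 genes with limma, giving the log2 change for each doubling of that share. Positive slopes passed an adjusted p under 0.05 for 89% of all genes and for 58.9% of the 489 tested genes that are not nuclear protein-coding, with a median slope of 0.75, and negative ones for 0.081% of all genes. Beside these shares, 3 of the 8 distinct members passed: Malat1 at 1.79 ± 0.39 (adjusted p = 0.00204), Rn7sk at 1.36 ± 0.50 (adjusted p = 0.0241) and Neat1 at 1.35 ± 0.34 (SE; adjusted p = 0.00409). The Rn7sk slope did not hold once Gm24447 was added (0.54, adjusted p = 0.0998). It also dropped below the threshold without control ASO replicate 1 (adjusted p = 0.0577) and without control ASO replicate 4 (adjusted p = 0.291). Neat1 did so without control ASO replicate 4 (adjusted p = 0.105), a fit in which the number of genes called fell from 4398 to 600, and Malat1 kept its call there. The slopes of the others were 0.58 ± 0.31 for Rpph1, 0.29 ± 0.22 for mt-Rnr1, 0.14 ± 0.27 for mt-Rnr2, -0.04 ± 0.31 for Rmrp and -0.10 ± 0.09 for Rn7s1 (SE; adjusted p of 0.0915 to 0.913). The intervals for Rn7s1 (-0.30 to 0.09), Rmrp (-0.72 to 0.65) and mt-Rnr2 (-0.44 to 0.72) lay below the median slope of all genes (0.75). Most of those genes make up the share itself. The median over the 489 tested genes that are not nuclear protein-coding was 0.722, and the mt-Rnr2 interval reached 0.723. The slope of Rn7s1, the largest share of a fixed total, is not free of the arithmetic.

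The genes most alike each member in log2(TPM + 1) over the 9 livers are given as a description, since each was the highest of all genes tested. For Rn7s1 they were 2 of its misc_RNA copies, Gm24812 (r = 0.92) and Gm24105 (r = 0.92), then Gm12112 (r = 0.77). Gm24812 is 90.2% identical to Rn7s1 over 214 bases. For mt-Rnr2 the leading gene was Gm20594 (r = 0.92), which matches mt-Rnr2 over 439 bases at 88.4% identity, followed by Rpl17-ps8 (r = 0.91) and AL607105.1 (r = 0.84). For mt-Rnr1 they were Serpina1d (r = 0.93), Serpina1e (r = 0.91) and Gm28305 (r = 0.90), the former pair being alpha-1-antitrypsin genes of hepatocytes. For Malat1 they were Gm8941 (r = 0.97), Ugt3a1 (r = 0.97) and Cyp2c29 (r = 0.97), the last a hepatocyte cytochrome P450. For Neat1 they were Pitpnb, Maz and Maged1 (each r = 0.97). For Rn7sk they were Rab1a (r = 0.97), Cox6b1 (r = 0.95) and Akt1s1 (r = 0.95), and for Rpph1 they were Rpl24 (r = 0.94), Plekhb1 (r = 0.93) and again Cox6b1 (r = 0.92). Rmrp had no close match, its best being Gm14586 (r = 0.73), Gm14279 (r = 0.72) and AC153368.1 (r = 0.69).

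The protein partners of these RNAs were listed at low levels and none was called. Of the signal recognition particle proteins, 7 of 8 were in the table, summed to 2.93 to 19.5 TPM per liver, and 4 were tested, with a median log2 difference of 0.09 beside 0.11 for all genes. The highest was Srp72 (0.21 ± 0.47) and the lowest Srp54a, the subunit that binds signal peptides (-0.14 ± 0.48; SE). Of the 7SK and P-TEFb proteins 4 of 7 were tested, with a median of 0.19, from Ccnt2 (0.11 ± 0.39), a cyclin T, to Cdk9 (0.40 ± 0.44), the kinase of P-TEFb. Of the 11 RNase P and MRP proteins only Pop5 was tested (0.49 ± 0.37). Of 20 polymerase III genes 8 were tested, with a median of 0.10, from Bdp1 (-0.08 ± 0.42), a part of the initiation factor TFIIIB, to Ssb (0.38 ± 0.51), the La protein that binds new polymerase III transcripts.

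Partners of the long RNAs were better measured. The 9 tested paraspeckle proteins had a median log2 difference of 0.15, from Sfpq (-0.03 ± 0.64) to Taf15 (0.46 ± 0.48), and the 9 tested nuclear speckle proteins had a median of 0.07, from Rbm25 (-0.08 ± 0.58) to Srsf2 (0.54 ± 0.53). On the median-of-ratios scale the medians were 0.00 and -0.19, beside -0.01 for all genes. All 18 had positive slopes on the protein-coding share that passed, near the 89% of all genes that did.

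Among genes of mitochondrial transcription and rRNA processing 6 of 17 were tested, with a median log2 difference of 0.03, from Lrpprc (-0.13 ± 0.49), which stabilises mitochondrial mRNAs, to Polrmt (0.33 ± 0.38), the mitochondrial RNA polymerase. Taken as 1 sum, the 13 mitochondrially encoded mRNAs had a log2 difference of -1.09 (exact permutation p = 0.0635). They are encoded together in mitochondrial DNA, so the 13 cannot be counted as independent results. All 13 were lower under apoC-III ASO in the fit as deposited, with a median of -1.10, and none was called. Of these, 4 had an unadjusted p under 0.05, namely mt-Nd3 (-1.80 ± 0.72), mt-Co2 (-1.32 ± 0.58), mt-Co1 (-1.13 ± 0.51) and mt-Atp6 (-1.17 ± 0.57), and mt-Nd6 was nearest to 0 (-0.07 ± 0.73; SE). Of all genes, 0.972% were lower at that level. With median-of-ratios and with protein-coding scaling 1 of the 13 was lower at that level, and with the latter 2 were above 0. In the reported slope fit, a positive slope on the protein-coding share passed for 2 of the 13, and for neither mt-Rnr1 nor mt-Rnr2. It passed for 58.9% of the tested genes that are not nuclear protein-coding.

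Other abundant small RNAs were near absent from the table. Of 13 looked for, 11 were listed, and 9 of these, including Rny1, Rny3, Rn5s and several spliceosomal U RNAs, were at 0 in every liver, while Terc reached 0.64 TPM and Rnu2-10 0.51 TPM on average. The genes that read out leftover cytosolic rRNA (5 of 7 listed, all tested) summed to 2674 to 3788 TPM under apoC-III ASO and to 876 to 3366 TPM under control ASO, lowest in control ASO replicate 4. They ran from Lars2 (0.34 ± 0.72) to AY036118 (1.005 ± 0.70), with a median log2 difference of 0.53, and none was called.

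Markers of other liver cells did not separate the groups. The 7 macrophage and leukocyte markers summed to 3.08 to 8.11 TPM under apoC-III ASO and to 0.888 to 6.57 TPM under control ASO. The 5 endothelial markers summed to 3.33 to 8.67 and 0.660 to 7.47 TPM, the 5 stellate cell markers to 4.14 to 8.87 and 2.46 to 10.7 TPM, the 4 cholangiocyte markers to 0.185 to 0.375 and 0.0452 to 0.298 TPM, and the 5 erythroid markers to 3.29 to 49.1 and 3.91 to 21.04 TPM. No gene of these lists was at 0 in all livers. Their part in the levels of the members was not tested, and in whole liver a change in the number of cells of a type and a change in RNA per cell cannot be told apart.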

How the data were processed

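Liver RNA of 9 mice (5 apoC-III ASO, 4 control ASO) was sequenced by the authors after ribosomal depletion (stranded, single-end). Per the labels, the deposited table holds TPM per gene; the submitters' processing notes name kallisto 0.43.1 and GRCm38, without their roles. Read counts, which the study tested after STAR alignment, were not used here. TPM keeps no read depth.

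Groups followed the sample titles. Members were found by symbol; 51719 of 51912 genes (99.6%) matched GENCODE M21, which gave biotypes, positions and sequences. BLAST 2.17.0 aligned the 7SL, 7SK, RNase and mitochondrial rRNA transcripts to all transcripts (at least 100 bases). A mean of at least 1 TPM was required (4936 genes; 25845 were at 0 throughout). limma 3.58.1 (R 4.3.3; eBayes with trend) was fitted to log2(TPM + 1), so fold changes of low genes are understated, with Benjamini-Hochberg adjustment over all genes. In the fit of the groups as deposited, the prior degrees of freedom were infinite, so the standard errors are those of genes of like level. Scripts were tested on simulated data. Exact permutation tests were two-sided, doubling the smaller tail. Values were recomputed with other pseudocounts, filters, scalings, moderation and left-out livers.

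The members and lists were chosen with earlier results of these data known. Named genes were all members, for each list the genes called, up to 5 with an unadjusted p under 0.05 and the highest and lowest log2 difference, the 3 genes most correlated with each member, and the 5 most abundant other genes. Replicate numbers were not taken as pairing the livers. The sequence of 7SL RNA is not reported here.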

Additional observations from a re-analysis of the deposited data

Results flagged for a closer look

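Of 22 groups of livers tested for a sample far from the others (Dixon's test; chance gives about 1 in 20 groups), 4 gave one. Rpph1 was at 2392 TPM in apoC-III ASO replicate 4, where the next liver was at 1044 TPM, and at 495 TPM in control ASO replicate 4, where the next was at 1139 TPM. Rn7sk and Gm24447 summed to 9052 TPM in apoC-III ASO replicate 4, against 3837 TPM in the next. Gm24447 was listed at 0 in control ASO replicate 1, and the nearest control liver was at 1662 TPM. Control ASO replicate 4 also had the lowest nuclear protein-coding share, 1.94%, and apoC-III ASO replicate 4 had the highest 7SL share, 83.6%, and the highest summed erythroid markers, 49.1 TPM. The part of either in these values was not tested.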

How the results depend on the processing

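No member was called in the comparison of the groups under any alternative run (mt-Rnr2 passed the adjusted p, not the fold, without apoC-III ASO replicate 1). The number of genes called there, 11 in the reported fit, was 4 with a pseudocount of 0.1, 7 with 0.5, 0 with no filter on low values (475 genes at an unadjusted p under 0.05), 0 with a mean TPM minimum of 5 (32 genes), 2 with median-of-ratios scaling, 4 with nuclear protein-coding scaling, 1 when scaled to the total outside 7SL and mitochondrial rRNA, 0 with eBayes without trend (76 genes), 2 with robust eBayes, 1 with median-of-ratios scaling without control ASO replicate 4, and 3 to 15 with 1 liver left out (7 without control ASO replicate 2, 3 without control ASO replicate 4). The replicate block gave 26. The labels give the numbers no meaning, and the deviations of same-numbered livers correlated above 0.1 in 3 of 4 pairs (-0.0029 in the other, up to 0.19) after median-of-ratios scaling and in 2 of 4 as deposited. Of the 8 livers with a partner, 5 and 3 correlated best with their own number. Pairing was therefore not taken as shown, and the block, to which apoC-III ASO replicate 5 adds nothing, is given here only.

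Slopes on the protein-coding share were called for 4398 genes, for 967 of 1109 genes with a mean TPM minimum of 5, 0 with the replicate block (2368 at an unadjusted p under 0.05), and 600 to 4417 with 1 liver left out (600 without control ASO replicate 4). With the block, no member slope passed (Malat1 1.31, adjusted p = 0.108; Neat1 1.38, adjusted p = 0.0805; Rn7sk 2.47, adjusted p = 0.0551; limma), and 4 slopes changed sign (Rn7s1 0.068, Rmrp 0.15, mt-Rnr1 -0.22, mt-Rnr2 -0.67); Rmrp also did so without control ASO replicates 2, 3 and 4 (0.017, 0.052 and 0.31; range -0.28 to 0.31). The mt-Rnr1 slope gained a call in 1 alternative (limma, adjusted p = 0.0368). Of 105 alternative slopes of members, 90 kept their direction and call.

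Of 177 alternative log2 differences of members, 161 kept their direction. The sign changed with median-of-ratios scaling for Rn7s1 (-0.26), Rmrp (-0.14) and Rpph1 (-0.11); for Rpph1 with array weights (-0.093), and with 1 liver left out (range -0.092 to 0.38) when that was replicate 4 of either group (-0.056 for apoC-III ASO, -0.092 for control ASO); for Rmrp without control ASO replicate 3 (-0.0071; range -0.0071 to 0.37); for mt-Rnr1 with nuclear protein-coding scaling (0.086; 0.35 without control ASO replicate 4, chosen after seeing the data), scaled to the total outside 7SL and mitochondrial rRNA (0.24), with control ASO replicate 4 dropped under median-of-ratios scaling (0.13), and when the liver left out was apoC-III ASO replicate 4 (0.15), control ASO replicate 1 (0.040) or 2 (0.048), range -0.22 to 0.15; and for mt-Rnr2 in the total outside 7SL and mitochondrial rRNA (0.012) and with nuclear protein-coding scaling without control ASO replicate 4 (0.22). These scalings shifted the median of all genes to between -0.01 and 0.33.

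The Malat1 correlation held in all 14 alternatives. Neat1 lost its call in the total outside 7SL and mitochondrial rRNA (r = 0.54) and without the 2 farthest livers (0.30), and ranged from 0.53 to 0.82 with 1 liver left out, with the call lost in 7 of those 9 fits. Rn7sk gained a call with log2 shares (0.64) and within groups (0.48). Rmrp changed sign with log2 shares (-0.044), in the total outside 7SL and mitochondrial rRNA (-0.56) and without control ASO replicate 1 (-0.18; range -0.18 to 0.30), as did mt-Rnr2 with length-weighted shares (-0.33). The log2 difference of the Malat1 to Neat1 ratio ran from -2.09 to -1.64 with 1 liver left out. Groups that do not overlap cannot come to overlap when a liver is dropped, so these fits do not test the separation. The causes were not tested. TPM keeps no depth, so counting error cannot be set beside these shifts.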
